A study of Mus musculus with 36 samples.

Results

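Imprinted genes are transcribed mainly from 1 parental chromosome. A set of 43 such genes, 23 paternally expressed, 19 maternally expressed and the complex gene Gnas, was followed by gene name through 36 RNA-seq libraries, in which 20325 mouse genes were listed. The libraries formed 18 groups of 2 and traced the reprogramming of mouse embryonic fibroblasts (MEFs) towards pluripotency. All MEFs were E13.5 cells, homozygous for a doxycycline-inducible Oct4-Klf4-Sox2-c-Myc cassette at Col1a1 and heterozygous for rtTA at Rosa26. SGC0946, an inhibitor of the histone H3 lysine 79 methyltransferase DOT1L, was compared with its solvent DMSO. In the timecourse the groups were uninduced MEFs, day 2 and day 4 controls, day 2 cells with inhibitor, and day 4 cells that had inhibitor in an early window (days 0 to 2), a mid window (days 2 to 4) or the full window (days 0 to 4). In the sort, cells were separated by surface CDH1 (E-cadherin) at day 3.5 and kept with or without inhibitor until day 5.5. In the lentivirus experiment, MEFs received an empty or a Cdh1-expressing virus and were taken uninduced or at day 2 with or without inhibitor. V6.5 embryonic stem cells (ESCs), feeder-depleted for 24 h, were the pluripotent reference. Reprogramming cells lay on irradiated feeder MEFs, whose RNA is counted with theirs. The labels do not say that replicates were separate cultures, so p-values measure the spread between these libraries, which may be technical.

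Imprints are methyl marks on DNA laid down in egg or sperm and kept after fertilization at control regions, where ZFP57, TRIM28 and DNMT1 are known to maintain them. The genes sit in clusters and many act on growth: as a broad tendency, paternally expressed genes promote and maternally expressed genes restrain fetal and placental growth. Several (Dlk1, Mest, Peg3, Cdkn1c, Grb10) are highly expressed in embryonic mesenchyme, from which MEFs derive. The counts hold no allele information. A change in level therefore cannot be assigned to a parental copy, and in bulk RNA fewer expressing cells and less RNA per cell cannot be told apart.

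Libraries of the timecourse held 32.9 to 50.9 M expected counts, sorted ones 34.9 to 43.1 M and those with lentivirus or from ESCs 18.5 to 35.9 M, of which the 43 genes took 0.245% to 0.671%. Levels are in CPM (counts scaled to library size) after TMM scaling, and a gene is called where edgeR's quasi-likelihood test, adjusted over all genes of the experiment, gives p under 0.05. The low-count filter left 39 members for testing in the timecourse, 36 among sorted cells and 41 among lentivirus and ESC libraries. Kcnq1, a potassium channel subunit, and Rasgrf1, a RAS exchange factor, were tested nowhere, with at most 7 and 3 counts in a library. The labels were checked against marker genes. The 5 fibroblast genes summed to 17200 to 19450 CPM in the MEF libraries and to 129 to 148 CPM in ESCs, and the 5 pluripotency genes to 0.419 to 0.732 CPM and 1913 to 2055 CPM. The 4 day 2 libraries with the empty virus stood apart, with 3.67 to 6.95 CPM of pluripotency genes against 0.754 to 1.18 CPM in the 4 with the Cdh1 virus. Dppa5a, an ESC-specific gene, stood at 1.62 to 3.89 CPM in the former and at most 0.031 CPM in the latter. A label field of the second uninduced library with the Cdh1 virus names day 2 cells, but its Peg3 (747 CPM) and Cdkn1c (196 CPM) lay near those of replicate 1 (767 and 238 CPM), far above day 2.

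Per transcript length, Gnas, which encodes the stimulatory G protein alpha subunit, was the most abundant member in uninduced timecourse MEFs with a mean of 1329 TPM. Cd81, a tetraspanin, followed at 607 TPM and Grb10, an adaptor of insulin and IGF receptors, at 439 TPM. In ESCs the first 3 were Gnas at 318 TPM, Cd81 at 198 TPM and Phlda2, which restrains placental growth, at 165 TPM. Of the 43 genes, 30 reached a mean of 10 CPM in at least 1 group, and 4 stayed under 1 CPM in every group.

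The promoter windows of 3 of the paternally expressed genes with results below, Nnat, Peg3 and Mest, are shown from RefSeq (GRCm38.p6), each 250 bases before to 50 after the annotated start, 5′ to 3′ on the gene's strand. Capitals mark TGCCGC or its complement GCGGCA, the core that ZFP57 is known to bind when methylated.
Nnat (chr2:157559828-157560127, plus strand): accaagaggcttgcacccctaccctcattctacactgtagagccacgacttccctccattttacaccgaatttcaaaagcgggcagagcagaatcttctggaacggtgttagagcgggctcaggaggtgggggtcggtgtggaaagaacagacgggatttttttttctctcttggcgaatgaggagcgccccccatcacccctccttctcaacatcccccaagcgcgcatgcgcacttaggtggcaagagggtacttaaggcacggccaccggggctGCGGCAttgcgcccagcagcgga
Peg3 (chr7:6730370-6730669, minus strand): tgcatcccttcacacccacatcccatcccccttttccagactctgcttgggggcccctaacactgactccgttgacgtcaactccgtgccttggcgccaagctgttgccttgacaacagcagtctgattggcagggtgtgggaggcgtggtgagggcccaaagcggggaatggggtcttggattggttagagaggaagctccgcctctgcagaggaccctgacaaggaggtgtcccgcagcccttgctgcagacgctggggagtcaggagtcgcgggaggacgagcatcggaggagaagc
Mest (chr6:30737800-30738099, plus strand): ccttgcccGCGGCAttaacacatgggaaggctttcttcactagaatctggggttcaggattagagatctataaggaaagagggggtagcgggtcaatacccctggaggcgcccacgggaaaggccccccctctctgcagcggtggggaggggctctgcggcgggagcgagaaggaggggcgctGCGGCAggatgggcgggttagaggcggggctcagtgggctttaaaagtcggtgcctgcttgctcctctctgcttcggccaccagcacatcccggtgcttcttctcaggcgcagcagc
RefSeq gives Mest 3 windows: the one shown, one shifted from it by a few bases and one upstream (chr6:30733256-30733555) with 0 matches and 8 CpG sites. The Nnat window held 1 match and 17 CpG sites, the Mest window shown 2 matches and 17 CpG sites, and the Peg3 window no match and 13 CpG sites. The 3 windows of Slc38a4, not shown, held no match and 5 CpG sites each, and no window was available for Peg10. The Peg3 window shared 263 of its 300 bases with that of Usp29, a ubiquitin-specific protease gene that starts on the opposite strand. Searched on both strands, the letters were in 13 of 54 windows of 36 members (24.1%) and in 3813 of 32851 windows of all genes (11.6%). Overlapping windows were counted separately in both shares, among them the Mest window shown and the one shifted by a few bases, with 2 matches each. Members' windows were also richer in CpG, with a median of 15.5 sites against 7 over all genes. A match is a run of letters, and binding was not measured.

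Nnat, which encodes a small membrane proteolipid of developing neurons, was lower with the DOT1L inhibitor in 7 of 8 inhibitor comparisons, all but the early window. At day 2 of the timecourse it stood at 25.5 and 25.2 CPM in controls and at 11 and 11.2 CPM with inhibitor, a log2 change of -1.19 (SE 0.069, adjusted p = 7.71e-16). This was the smallest p of all 14473 genes tested there. At day 4 it stood at 40.3 and 40.6 CPM in controls and at 23.5 and 21.8 CPM after the full window (log2 change -0.84, SE 0.060, adjusted p = 8.39e-15). The treated libraries lay below every control library at both times, while the control level itself rose from day 2 to day 4 (log2 change 0.68, SE 0.060). At day 5.5 the CDH1-negative fraction went from 13.19 and 13.51 CPM to 7.19 and 7.52 CPM, and the CDH1-positive fraction from 15.3 and 15.2 CPM to 8.49 and 8.77 CPM. With the empty virus the day 2 level went from 20.5 and 19.7 CPM to 11.2 and 10.8 CPM. With the Cdh1 virus it went from 16.8 and 16.3 CPM to 9.49 and 8.81 CPM. The log2 changes were -0.86 (SE 0.090) and -0.82 (SE 0.086) in the 2 sorted fractions and -0.87 (SE 0.093) and -0.85 (SE 0.090) with the 2 viruses, with adjusted p from 4.56e-14 to 5.86e-06. In each pair of groups both treated libraries lay below both controls. Nnat lies inside an intron of Blcap on the other strand, and the labels do not say that strand was kept. Blcap, at 41.5 and 41.2 CPM in day 2 controls and 39.8 and 41.7 CPM with inhibitor, was called in none of these comparisons except in the CDH1-negative cells, where it was lower by a log2 change of -0.12 (adjusted p = 0.0483).

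**Figure D1:**
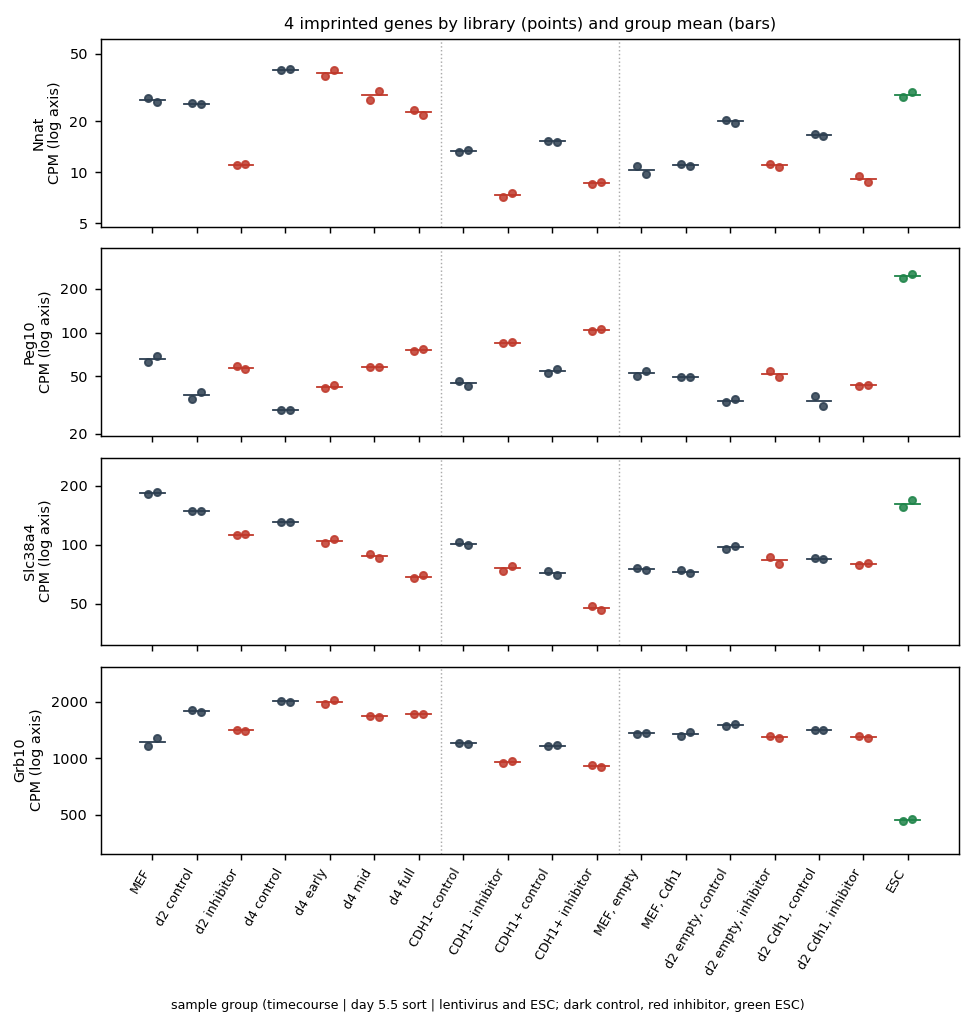
CPM (log axis) of Nnat, Peg10, Slc38a4 and Grb10 in each of 36 libraries (points) with the group mean (bars), for controls (dark), inhibitor (red) and ESCs (green). Nnat falls from 25.5 and 25.2 to 11 and 11.2 CPM with inhibitor at day 2, and Peg10 rises from 29.2 and 29.4 to 74.1 and 77.5 CPM at day 4.

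Peg10, a retrotransposon-derived gene needed for the placenta, moved the other way and was the 1 member called in all 8 inhibitor comparisons. At day 2 of the timecourse it rose from 34.9 and 39 CPM to 58.6 and 55.9 CPM (log2 change 0.63, SE 0.051, adjusted p = 4.71e-12). At day 4 it rose from 29.2 and 29.4 CPM to 74.1 and 77.5 CPM (log2 change 1.37, SE 0.051, adjusted p = 1.28e-23), and the day 4 effect was larger than that of day 2 by 0.74 (SE 0.072, adjusted p = 4.57e-10). In the sort it rose from 46.4 and 42.8 to 84.2 and 86.7 CPM in CDH1-negative cells and from 52.5 and 55.8 to 102 and 105 CPM in CDH1-positive cells (log2 change 0.94 in both). In the lentivirus cells the rise was 0.60 (SE 0.077) with the empty virus, from 33.2 and 34.7 to 54.4 and 49.3 CPM, and 0.35 (SE 0.075, adjusted p = 0.00801) with the Cdh1 virus, from 36.7 and 31 to 42.9 and 43.5 CPM. The last call was lost without replicate 2 of the Cdh1-virus control (adjusted p = 0.231). ESCs had 238 and 254 CPM, above every other library. Sgce, the epsilon-sarcoglycan gene that shares a promoter region with Peg10, was called in none of the 8. It stood at 19 and 16.2 CPM in day 2 controls and 18.5 and 18.3 CPM with inhibitor, and at 30.5 and 30.3 against 30.5 and 31.3 CPM at day 4.

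Over all members, 17 of 39 were called with inhibitor at day 2 of the timecourse, 10 higher and 7 lower, where 8.73% of all genes tested were higher and 9.11% lower. The members' median log2 change was 0.06 and that of all genes -0.005. By class, 3 of 22 paternally expressed members were higher and 4 lower, and 7 of 16 maternally expressed members were higher and 2 lower. At day 4 after the full window, 9 were higher and 11 lower, against 19% and 15.8% of all genes, with 3 higher and 5 lower in the paternal class and 6 and 5 in the maternal class. In CDH1-negative sorted cells 6 of 36 were higher and 8 lower, against 7.82% and 10.8% of all genes. In CDH1-positive cells 4 were higher and 8 lower, against 8.33% and 10.5%. With the empty virus 3 of 41 were higher and 5 lower, against 3.22% and 3.52%, and with the Cdh1 virus 5 were higher and 2 lower, against 2.82% and 2.23%. Epithelial markers moved with the inhibitor as well: the 4 tested were all higher at day 2 and at day 4, with the 5 summing to 5.97 to 6.04 CPM in day 2 controls and 14.7 to 14.9 CPM with inhibitor, and to 13.6 to 14.1 and 57.1 to 57.9 CPM at day 4. In the sort 4 of 5 were higher in each fraction, while 1 of 5 was with the empty virus and 0 with the Cdh1 virus. The 4 neural markers summed to 216 to 217 CPM in day 2 controls of the timecourse and 265 to 271 CPM with inhibitor. The part of either marker list in the members' changes was not tested. Most of these counts were smaller where a library was left out. At day 2 of the timecourse 11 were called without control replicate 2. With the empty virus 4 were called whichever library was left out (control replicate 1 or 2, inhibitor replicate 1 or 2). With the Cdh1 virus 3 were called without control replicate 1, 4 without control replicate 2 or inhibitor replicate 2, and 10 without inhibitor replicate 1.

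**Figure D2:**
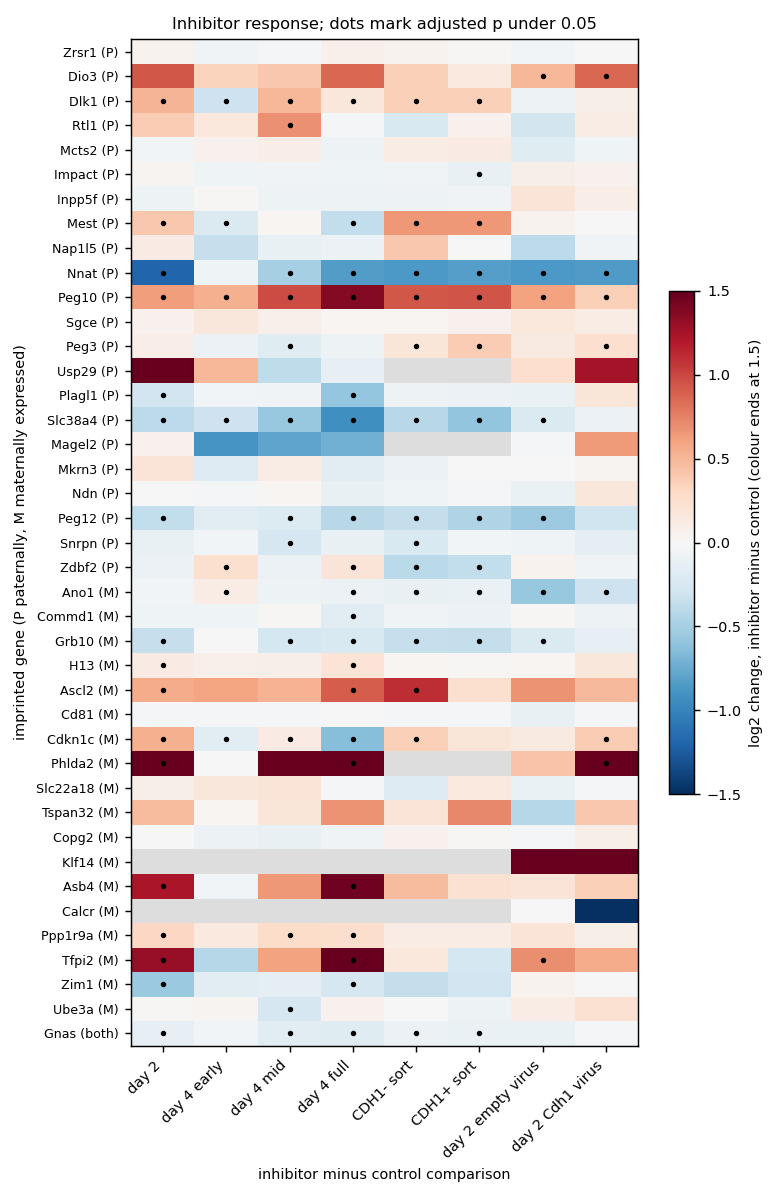
Log2 change, inhibitor minus control, for 41 imprinted genes (rows, paternally expressed first) in 8 comparisons (columns); dots mark calls and grey marks genes not tested. Nnat is lower in 7 of 8 columns and Peg10 higher in 8 of 8, while 15 genes have no dot.

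Among the other paternally expressed genes, Slc38a4, an amino acid transporter, was lower with inhibitor in 7 comparisons. At day 2 it went from 149 and 148 CPM to 112 and 113 CPM (log2 change -0.40, SE 0.035) and at day 4 from 131 and 131 CPM to 67.9 and 69.7 CPM (-0.92, SE 0.037, adjusted p = 1.1e-22). The decrease at day 4 exceeded that at day 2 by 0.53 (SE 0.051). In the sort it went from 103 and 99.6 to 73.8 and 77.6 CPM in CDH1-negative cells and from 73.1 and 69.9 to 48.5 and 46.3 CPM in CDH1-positive cells. It was lower with the empty virus by a log2 change of -0.22 (adjusted p = 0.0314), a call lost whichever of the 4 libraries was left out (adjusted p up to 0.196), and with the Cdh1 virus the change was -0.093 (adjusted p = 0.42). Peg12, of the FRAT family of WNT signalling proteins, was lower in 6, for example from 28.6 and 30.3 to 23.4 and 22.3 CPM at day 2 (log2 change -0.37, SE 0.064) and from 17 and 16.2 to 12.3 and 11.9 CPM in CDH1-positive cells (-0.45, SE 0.075). Plagl1, the zinc finger factor Zac1, was lower in the timecourse where the inhibitor was present from day 0 to the harvest. It went from 156 and 151 to 127 and 126 CPM at day 2 and from 234 and 230 to 155 and 155 CPM at day 4 (log2 change -0.58, SE 0.033). It was not called in the other inhibitor comparisons. In the sort its change was -0.076 (adjusted p = 0.145) and -0.089 (adjusted p = 0.0798). In the lentivirus cells, also exposed from day 0 to the harvest, it was -0.094 (adjusted p = 0.735) with the empty and 0.18 (adjusted p = 0.502) with the Cdh1 virus.

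Of the maternally expressed genes with high levels, Grb10 was lower in 6 comparisons. It went from 1812 and 1772 CPM to 1418 and 1396 CPM at day 2 (log2 change -0.35, SE 0.034) and from 2015 and 2005 CPM to 1711 and 1715 CPM at day 4 (-0.23, SE 0.034). The sort gave 1209 and 1198 against 940 and 962 CPM in CDH1-negative cells and 1158 and 1177 against 920 and 900 CPM in CDH1-positive cells. With the empty virus the change was -0.22 (adjusted p = 0.0263), lost when any 1 of the 4 libraries was left out (adjusted p up to 0.147). Ano1, a calcium-activated chloride channel, was lower with inhibitor after the empty virus, from 70.3 and 66.6 to 45 and 47.4 CPM (log2 change -0.57, SE 0.074). It was lower after the Cdh1 virus as well, from 60.5 and 58.7 to 48.1 and 47.9 CPM (-0.31, adjusted p = 0.0137, at most 0.105 with a library left out). In the timecourse it was 135 and 133 CPM against 129 and 131 CPM at day 2, which did not pass the test (adjusted p = 0.423). Its other called changes were small, -0.089 after the full and 0.11 after the early window at day 4, and -0.11 and -0.10 in the CDH1-negative and CDH1-positive cells, and each was lost for at least 1 library left out (adjusted p up to 0.227, 0.344, 0.21 and 0.0816). Gnas was lower by small amounts in 5 comparisons, for example from 1301 and 1291 CPM to 1154 and 1134 CPM at day 4 (log2 change -0.18, SE 0.030). Its gene entry joins transcripts of both parental classes.

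Mest, an alpha/beta hydrolase family gene, and Cdkn1c, which encodes the cell cycle inhibitor p57, were called in opposite directions at the 2 days. Mest rose with inhibitor at day 2, from 98.4 and 98.7 to 133 and 128 CPM (log2 change 0.40, SE 0.035), and fell at day 4, from 165 and 170 to 128 and 131 CPM (-0.37, SE 0.033). The difference between the effects was -0.77 (SE 0.048, adjusted p = 1.56e-15). At day 5.5 it rose in both sorted fractions, from 31.6 and 28.8 to 47.4 and 47.5 CPM and from 23.1 and 24.3 to 37.9 and 36.7 CPM, with a log2 change of 0.65 in each. In the lentivirus cells it did not pass the test, with changes of 0.051 (adjusted p = 0.664) and 0.0053 (adjusted p = 0.986). Cdkn1c rose at day 2 from 4.85 and 4.7 to 6.72 and 7.11 CPM (log2 change 0.54, SE 0.091) and fell at day 4 from 98.5 and 98.7 to 64.5 and 62.2 CPM (-0.64, SE 0.042), a difference of -1.18 (SE 0.10, adjusted p = 1.35e-11). The partial windows at day 4 left it at 87.9 and 86.7 CPM after the early (-0.17, adjusted p = 0.00419) and 109 and 105 CPM after the mid window (0.12, adjusted p = 0.0247). It was also higher in CDH1-negative cells (0.35, adjusted p = 0.0219) and with the Cdh1 virus (0.38, adjusted p = 0.0345). These 4 calls were lost for 2 or 3 of the 4 libraries left out (adjusted p up to 0.0756, 0.235, 0.235 and 0.286). Dlk1, a Notch-related membrane protein of preadipocytes, rose at day 2 from 22.1 and 20.3 to 30.3 and 30.2 CPM (0.51, SE 0.060). At day 4 it had 16.6 and 15.9 CPM in controls and 19.7 and 17 CPM after the full window (0.17, adjusted p = 0.0476, and 0.678 without inhibitor replicate 1). In the sort it rose by 0.35 (SE 0.065) and 0.36 (SE 0.070). Of its cluster, Dio3, a thyroid hormone inactivating deiodinase, rose in the lentivirus cells with the Cdh1 virus (0.86, SE 0.14), from 3.78 and 4.31 to 7.45 and 7.22 CPM. With the empty virus it went from 5.76 and 4.86 to 7.79 and 7.18 CPM (0.49, adjusted p = 0.0343, lost whichever library was left out, at most 0.258). Its changes at day 2 and day 4 of the timecourse, 0.93 (adjusted p = 0.113) and 0.86 (adjusted p = 0.256), did not pass the test. Rtl1, a retrotransposon-derived placental gene, was called with inhibitor only in the mid window (0.69, adjusted p = 0.0118).

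Over all genes, the day 4 effect differed from the day 2 effect for 2 members that were higher and 6 that were lower, against 5.61% and 3.57% of all genes. Besides Peg10, Slc38a4, Mest, Cdkn1c and Dlk1 (-0.35) these were Nnat (0.35), Plagl1 (-0.29) and Peg3 (-0.18). Between the sorted fractions no member's inhibitor effect was called different, where 0.0501% and 0.136% of all genes were. There edgeR gave 4 members an unadjusted p under 0.05, and DESeq2 and limma called 0. Between the viruses edgeR called no member and no gene (0% in each direction), with 4 members at an unadjusted p under 0.05. DESeq2 called 24 genes there and edgeR without the low-count filter 5, and DESeq2 and limma called 0 members.

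The windows at day 4 gave different values by gene, and all were compared with the same 2 control libraries. After the early window, which ended 2 days before harvest, 3 of 39 members were higher and 4 lower, against 3.19% and 2.45% of all genes, and 3 were called without control replicate 1 or early replicate 2, and 4 without control replicate 2. After the mid window 13 were called, against 27.4% of all genes. Between the windows 7 members were higher after the early one and 4 lower, against 11% and 10.3%. Nnat stood at 37.1 and 40.3 CPM after the early window, a log2 change of -0.062 from control (SE 0.057, adjusted p = 0.651), and at 26.8 and 30.4 CPM after the mid window (-0.50, SE 0.060). Grb10 had a change of -0.0054 (SE 0.034, adjusted p = 0.962) after the early window and -0.27 (SE 0.034) after the mid window. For both genes the early and mid groups differed (0.44, adjusted p = 5.52e-07, and 0.26, adjusted p = 1.46e-07). Peg10 was higher after either window, at 41.4 and 43.4 CPM after the early (0.54, SE 0.053) and 57.9 and 57.8 CPM after the mid window (0.98, SE 0.053). Slc38a4 was lower after either, at 102 and 108 CPM (-0.32, SE 0.036) and 89.8 and 85.9 CPM (-0.57, SE 0.037). Dlk1 went in opposite directions, to 13.2 and 13 CPM after the early window (-0.31, adjusted p = 0.00307, at most 0.0802 with a library left out) and to 21.6 and 24.1 CPM after the mid window (0.49, SE 0.067). Mest was lower after the early window at 142 and 146 CPM (-0.22, SE 0.033) and had 174 and 170 CPM after the mid window (0.033, adjusted p = 0.507). Plagl1 was called after neither, with changes of -0.041 (SE 0.032, adjusted p = 0.568) and -0.056 (SE 0.033, adjusted p = 0.214).

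**Figure D3:**
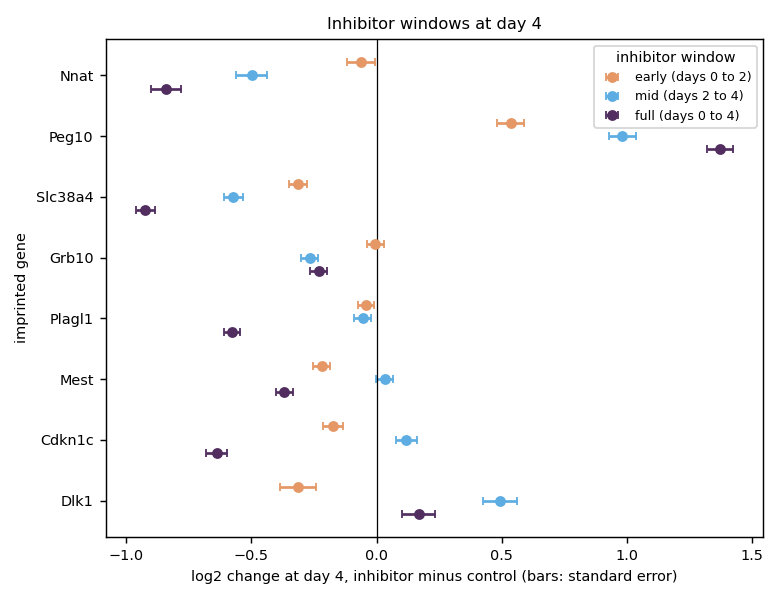
Log2 change at day 4, inhibitor minus control, of 8 imprinted genes after the early, mid and full windows; points are fitted values from 2 libraries a group and bars their standard errors. Nnat lies at -0.062 after the early window and -0.84 after the full window, and Peg10 lies above 0 after each.

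Among maternally expressed genes, Phlda2, Ascl2, Asb4 and Tfpi2, named here after their values were seen, were called higher with inhibitor in some comparisons at low counts. Phlda2 had 1 and 0 counts in day 2 controls and 9 and 20 with inhibitor (adjusted p = 0.00173, and 0.0585 without inhibitor replicate 2). At day 4 it had 0 and 0 counts in controls and 4 and 4 with inhibitor (adjusted p = 0.0304, lost when any 1 of the 4 libraries was left out), which is at the limit of 3 counts that a count of 0 allows. With the Cdh1 virus it had 0 and 1 counts in controls and 9 and 12 with inhibitor (adjusted p = 0.00578). Ascl2, a transcription factor of trophoblast, had 1.89 and 1.9 CPM in day 2 controls and 2.56 and 3 CPM with inhibitor (adjusted p = 0.0377), and 0.82 and 0.863 against 1.63 and 1.53 CPM at day 4 (log2 change 0.91, SE 0.23). In CDH1-negative cells it rose from 0.744 and 1.28 to 2.04 and 2.35 CPM (1.11, SE 0.23). Asb4, with an ankyrin repeat and SOCS box, rose from 0.547 and 0.324 to 1.02 and 1.01 CPM at day 2 and from 0.194 and 0.14 to 0.384 and 0.539 CPM at day 4 (adjusted p = 0.00581 and 0.00996). Tfpi2, a serine protease inhibitor, had 0.0995 and 0.208 against 0.379 and 0.397 CPM at day 2 (adjusted p = 0.0494). Leaving out 1 library ended the calls of Ascl2 and Tfpi2 at day 2 (adjusted p up to 0.305 and 0.343), and those of Asb4 at both times and Tfpi2 at day 4 for at least 1 library (up to 0.155, 0.126 and 0.133). Ppp1r9a, the actin scaffold neurabin, was well measured and rose by less, from 29 and 29 to 35.8 and 33.8 CPM at day 4 (0.26, SE 0.071). The 5 trophoblast markers summed to 2.26 to 2.52 CPM in day 2 controls and 3.44 to 3.52 CPM with inhibitor, with Elf5 at 0 in the controls and Cdx2 and Elf5 at 0 with inhibitor. The part of other cells in these rises was not tested.

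At day 5.5 without inhibitor, CDH1-positive cells had 7 of 36 members higher and 4 lower than CDH1-negative cells, against 12.8% and 13.8% of all genes. Zdbf2, a zinc finger gene, was higher, at 86.1 and 89.3 against 64.8 and 59.7 CPM (log2 difference 0.49, SE 0.040), as were Peg10 (0.28, SE 0.044) and Ano1, at 200.5 and 202.9 against 177.7 and 170.8 CPM (0.21, SE 0.030). Slc38a4 was lower, at 73.1 and 69.9 against 103 and 99.6 CPM (-0.50, SE 0.038), as were Dlk1, at 15.5 and 13.2 against 18.8 and 20.6 CPM (-0.45, SE 0.071), Mest (-0.35, SE 0.057) and Plagl1 (-0.18, SE 0.037). With inhibitor Zdbf2 was lower in both fractions, at 45.7 and 48.5 CPM in CDH1-negative and 69.2 and 66.2 CPM in CDH1-positive cells (-0.40, SE 0.043, and -0.37, SE 0.039). At day 4 of the timecourse Zdbf2 had been called higher, from 32.8 and 31.1 to 35.7 and 37.5 CPM after the full window (0.20, adjusted p = 0.025) and to 37.2 and 38 CPM after the early window (0.23, adjusted p = 0.0384), and both calls were lost whichever library was left out (adjusted p up to 0.23 and 0.353). Peg3 was higher with inhibitor in CDH1-negative (0.18, SE 0.050) and CDH1-positive cells (0.39, SE 0.047). It was also called higher with the Cdh1 virus (0.26), at 193.5 to 205.2 against 164.9 to 169 CPM. After the mid window at day 4 Peg3 was called lower (-0.18), at 175 to 179.2 against 197.4 to 204.7 CPM. The 5 macrophage markers summed to 59.1 to 60.4 CPM in CDH1-positive and 9.81 to 10 CPM in CDH1-negative controls, and 43 to 43.5 and 7.67 to 8.23 CPM with inhibitor. Their part in these differences was not tested.

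Most members changed during reprogramming itself. From MEF to day 2 in the timecourse, 12 of 39 members rose and 21 fell, against 40.4% and 34% of all genes, with a median log2 change of -0.245 against 0.057. In the paternal class 5 rose and 13 fell, with a median of -0.65, and in the maternal class 7 rose and 7 fell. From day 2 to day 4, 20 rose and 16 fell, against 38.1% and 39.7%. Several fibroblast-rich members fell steeply by day 2 and stood high again at day 4. Peg3, a zinc finger transcription factor, had 242 and 260 CPM in uninduced cells, 43.1 and 42.2 CPM after 2 days and 197 and 205 CPM after 4. Cdkn1c went from 67.7 and 62 CPM to 4.85 and 4.7 CPM and then to 98.5 and 98.7 CPM. Mest went from 256 and 254 CPM to 98.4 and 98.7 CPM and 165 and 170 CPM. A fall and a later rise were also measured for Zim1, a zinc finger gene of the Peg3 cluster (6.82 and 7.37, 2.39 and 1.99, 8.5 and 8.32 CPM), and Sgce (34.5 and 32.2, 19 and 16.2, 30.5 and 30.3 CPM). All of these falls and rises were called. Usp29, which shares Peg3's promoter window, fell as well, with 0.735 and 0.882 CPM in MEFs and 0.0249 and 0.0463 CPM at day 2 (log2 change -4.38, SE 0.62). Peg3, Cdkn1c, Mest, Zim1 and Sgce stood lower than at day 4 in controls of the day 5.5 sort, a separate experiment scaled apart. There CDH1-negative cells had 33.9 to 35 CPM of Peg3, 4.98 to 5.72 of Cdkn1c and 28.8 to 31.6 of Mest. CDH1-positive cells had 37.15 to 37.19, 5.05 to 5.22 and 23.1 to 24.3 CPM. The difference from day 4 was not tested.

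Dlk1 and Ndn did not return. Dlk1 fell from 195 and 185 CPM to 22.1 and 20.3 CPM at day 2 and 16.6 and 15.9 CPM at day 4. Ndn, the MAGE family gene necdin, went from 115 and 113 CPM to 64.4 and 66.9 and then 49.6 and 52.9 CPM. Tfpi2 fell from 13 and 12.3 CPM to at most 0.208 CPM. In the opposite direction Ano1 rose from 10.4 and 10.7 to 135 and 133 CPM (log2 change 3.67, SE 0.047) and Ppp1r9a from 2.13 and 3.1 to 13.7 and 11.3 CPM (2.26, SE 0.12). Other cell types moved with these groups. The summed macrophage markers were at 204 to 206 CPM in uninduced cells, at 27.4 to 29.7 CPM after 2 days and at 104 to 108 CPM after 4. The skeletal muscle markers went from 35.4 to 35.8 CPM in MEFs to 0.547 to 0.671 CPM at day 2, with Myod1 then at 0, and 1.64 to 1.91 CPM at day 4. The fibroblast markers went from 19350 to 19450 CPM to 4882 to 5045 and 6236 to 6267 CPM, and Postn, a matrix protein gene of fibroblasts, from 1219 and 1243 to 32.5 and 32.8 and then 91 and 87.5 CPM. The neural markers went the other way, from 58.9 to 63.7 CPM in MEFs to 216 to 217 CPM at day 2. At day 4 they stood at 54.4 to 55.4 CPM. The endothelial markers also rose, from 17.5 to 18.2 CPM to 77.4 to 78.9 CPM, with 48.6 to 49.9 CPM at day 4. Feeder cells lay under the induced cells. The part of such cells in the day 4 levels was not tested.

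**Figure D4:**
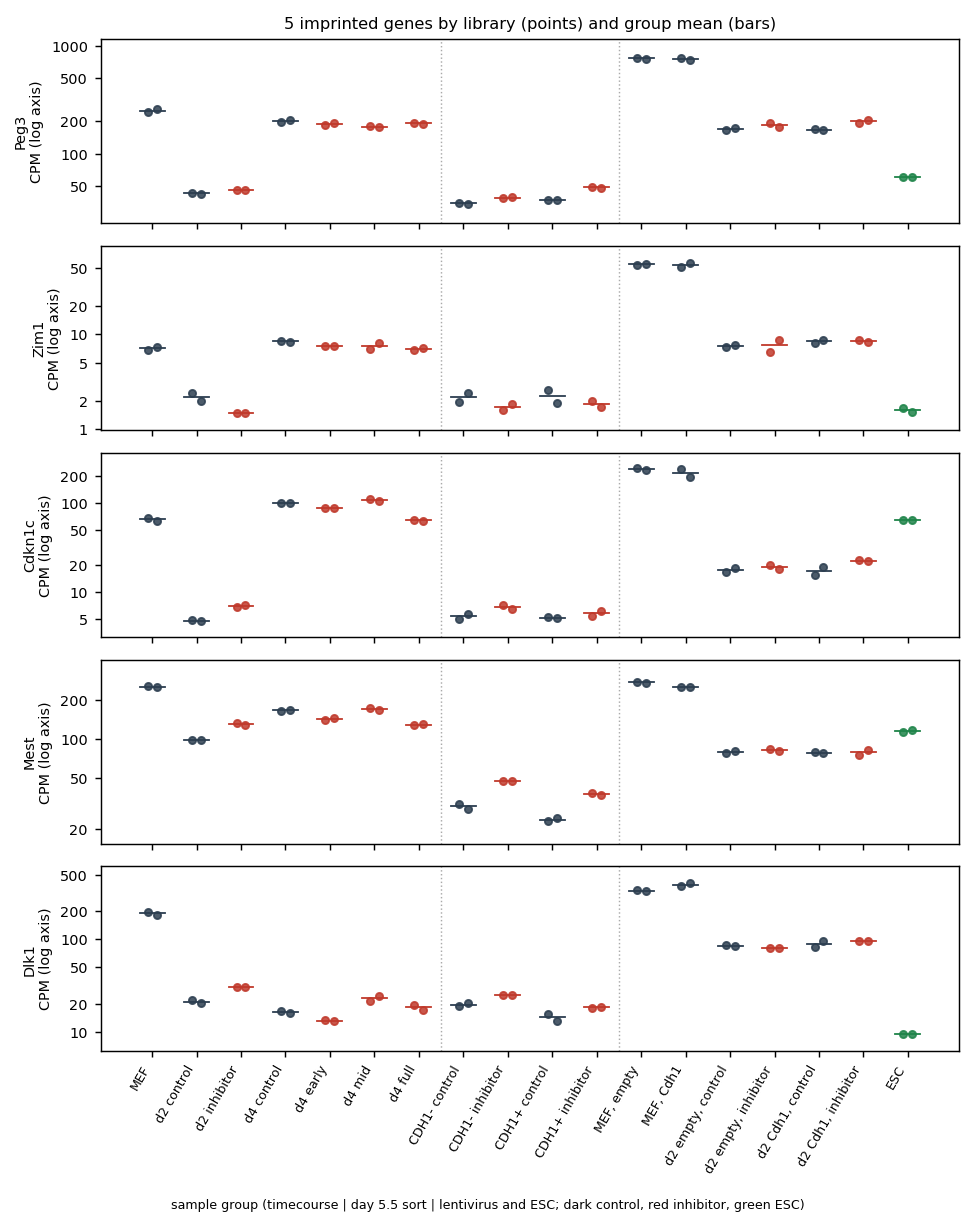
CPM (log axis) of Peg3, Zim1, Cdkn1c, Mest and Dlk1 in each of 36 libraries (points) with the group mean (bars), for controls (dark), inhibitor (red) and ESCs (green). Peg3 falls from 242 and 260 CPM in MEFs to 43.1 and 42.2 at day 2 and stands at 197 and 205 at day 4, while Dlk1 stays low.

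The lentivirus experiment gave a second, separate set of libraries for the step from MEF to day 2. With the empty virus, 15 of 41 members rose and 21 fell, against 33.4% and 32.7% of all genes. Of 39 members tested in both experiments, 29 were called in both, which is 87.9% of the 33 called in the timecourse and 82.9% of the 35 called with the empty virus. Over all genes the shares were 73.5% and 80.4%. Of the 29 members, 20 (69%) changed in the same direction, against 79.5% of all genes called in both. Peg3 fell from 774 and 755 to 164 and 172 CPM, Cdkn1c from 242 and 235 to 16.6 and 18.4 CPM, Mest from 276 and 275 to 78.7 and 80.4 CPM and Dlk1 from 339 and 333 to 86.2 and 83.8 CPM, and Ano1 rose from 7.69 and 8.83 to 70.3 and 66.6 CPM. The other 9 went in opposite directions: Plagl1, Phlda2, Magel2, Ube3a, Nap1l5, Cd81, Commd1, Dio3 and Slc38a4. Plagl1 fell here from 344 and 328 to 166 and 144 CPM where it had risen from 117 and 114 to 156 and 151 CPM. Nap1l5, a nucleosome assembly retrogene inside Herc3, rose from 2.56 and 4.33 to 11.6 and 13 CPM where it had fallen from 4.26 and 4.35 to 2.17 and 2.41 CPM. The steep fall of Tfpi2 in the timecourse (log2 change -6.315) was not repeated. With the empty virus it had 2.21 to 2.33 CPM in MEFs and 1.76 to 1.84 CPM at day 2 (-0.33, not called). With the Cdh1 virus its change was -0.11 (adjusted p = 0.631). The experiments differed in read layout and spiked RNA, and these cannot be told apart from the cells. Macrophage markers summed to 1210 to 1321 CPM in empty-virus MEFs, against 204 to 206 CPM in the timecourse. At day 2 they summed to 203 to 217 CPM against 27.4 to 29.7 CPM. Skeletal muscle markers summed to 1.33 to 1.37 CPM in empty-virus MEFs against 35.4 to 35.8 CPM. With the Cdh1 virus the macrophage markers stood at 712 to 829 CPM in MEFs and 76.1 to 78.6 CPM at day 2. The part of such cells was not tested. Grb10 rose by 0.15 with the empty virus (adjusted p = 0.0292), which limma on TPM reversed to -0.065 (adjusted p = 0.299). Since the 4 day 2 libraries with the empty virus held Dppa5a, the step was also taken with the Cdh1 virus, where 33 of 41 members were called, against 66% of all genes. Phlda2, which has 61.5 and 70.9 CPM in ESCs, rose with the empty virus (2 and 2 counts to 10 and 5) but fell with the Cdh1 virus (6 and 2 counts to 0 and 1, adjusted p = 0.012). A further 4 members passed the test with the empty virus alone. Magel2, a ubiquitin ligase partner, lay at only 0.0322 to 0.324 CPM in the libraries of both steps. It had changes of similar size, 1.79 with the empty virus and 1.95 with the Cdh1 virus (adjusted p = 0.0503). Tspan32, a tetraspanin, had 1.26 and 0.84 (adjusted p = 0.0854), Ube3a, a ubiquitin ligase, -0.35 and -0.13 (adjusted p = 0.119) and Grb10 0.15 and 0.071 (adjusted p = 0.291). The differences between these changes were not tested.

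The Cdh1 virus was also compared with the empty virus. In uninduced MEFs no member was called, where 0.612% of all genes were higher and 0.525% lower. There edgeR gave 4 members an unadjusted p under 0.05, and DESeq2 and limma called 0. At day 2 without inhibitor, 0 members were higher and 1, Phlda2, lower with the Cdh1 virus, against 0.146% and 0.751% of all genes (0 and 1 counts against 10 and 5, adjusted p = 0.0257). DESeq2 did not call it (adjusted p = 0.262), it was lost without replicate 1 of the empty-virus control (adjusted p = 0.397), and it rests on the libraries that held Dppa5a, whose part was not tested. The inhibitor responses were then set side by side between experiments. Of the 17 members called at day 2 of the timecourse, 6 were called in the same direction with the empty virus (35.3%, and 75% of the 8 called there, against 15.4% and 39.1% over all genes), namely Nnat, Peg10, Slc38a4, Grb10, Peg12 and Tfpi2. With the Cdh1 virus 4 were (23.5%, and 57.1% of the 7, against 11.7% and 39.8% over all genes), namely Nnat, Peg10, Cdkn1c and Phlda2.

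**Figure D5:**
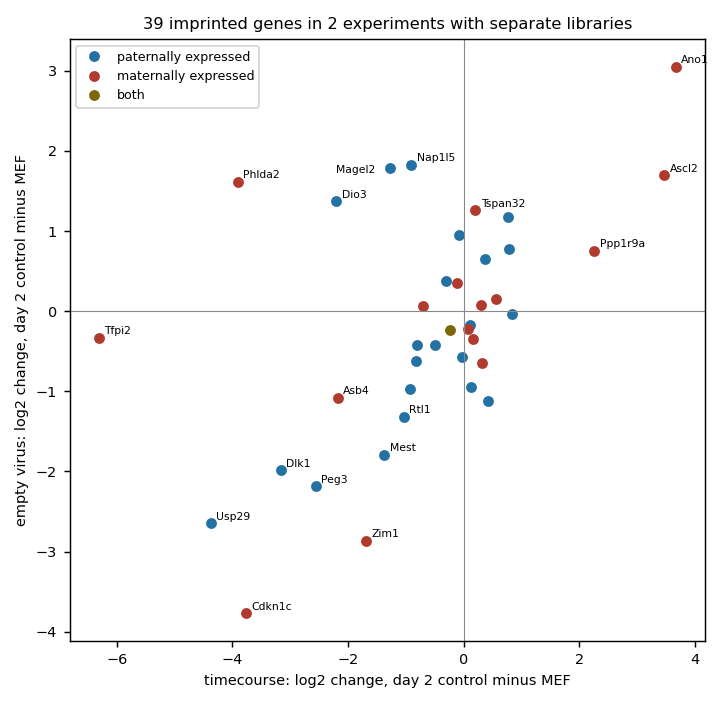
Log2 change from MEF to day 2 control in the timecourse (x axis) and with the empty virus (y axis) for 39 imprinted genes, coloured by class. Peg3, Cdkn1c, Mest, Dlk1, Usp29 and Zim1 lie in the lower left and Ano1, Ascl2 and Ppp1r9a in the upper right, while Dio3, Magel2, Nap1l5 and Phlda2 lie in the upper left.

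ESCs differed from MEFs with the empty virus in 37 of 41 members, 14 higher and 23 lower, against 44.5% and 44.1% of all genes. The members' median log2 difference was -1.15 and that of all genes 0.003. In the paternal class 8 were higher and 13 lower, and in the maternal class 6 and 9. Several fibroblast-rich members were far lower in ESCs. Plagl1 stood at 344 and 328 CPM in MEFs and 7.29 and 7.1 CPM in ESCs (log2 difference -5.55, SE 0.17). Dlk1 stood at 339 and 333 against 9.34 and 9.4 CPM (-5.16, SE 0.082), and Zim1 at 53.8 and 55.5 against 1.68 and 1.51 CPM (-5.10, SE 0.13). Peg3 stood at 774 and 755 against 61.2 and 60.7 CPM (-3.65), Sgce at 76 and 78.5 against 7.03 and 8.43 CPM (-3.32) and Ndn at 118 and 116 against 15 and 12.4 CPM (-3.10). Gnas (-2.15) and Cd81 (-2.14) were lower too. Higher in ESCs were Snrpn, a neuronal splicing protein gene, at 127 and 123 against 9.29 and 9.89 CPM (3.70, SE 0.082), Ppp1r9a at 46.9 and 50.9 against 6.45 and 6.49 CPM (2.92, SE 0.10) and Zdbf2 at 122 and 132 against 21.5 and 19.6 CPM (2.63, SE 0.10). Phlda2 had 1830 and 2398 counts in ESCs against 2 and 2, and Calcr, the calcitonin receptor gene, 54 and 65 counts against 0 and 0. Calcr lay at 0 CPM in all MEFs of this fit and at most 0.033 CPM at day 2. It therefore passed the low-count filter through the ESCs alone, which fixed its place among the 14 higher. Peg10 (2.23, SE 0.073), Nnat (1.47, SE 0.090) and Slc38a4 (1.10, SE 0.062) were also higher. Neighbours in 1 cluster went apart: Peg10 and Ppp1r9a were higher and Sgce, Tfpi2 and Asb4 lower, and Snrpn was higher and Ndn and Peg12 lower.

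Genes known to act on imprints or on DNA methylation, among them Tet1, Tet2 and Tet3, which oxidise the methyl mark, were taken as a list of 22. At day 2 with inhibitor 0 of 20 tested were higher and 3 lower, against 8.73% and 9.11% of all genes: Dnmt1, the maintenance DNA methyltransferase (351 and 352 to 306 and 301 CPM, log2 change -0.21, SE 0.031), Uhrf1, its recruiting partner (303 and 298 to 274 and 276 CPM, -0.13), and Tet2, a methylcytosine dioxygenase (25.8 and 25.5 to 21.6 and 21.6 CPM, -0.25). At day 4, 1 was higher and 7 lower, against 19% and 15.8% of all genes, Dnmt1 among them (-0.28, SE 0.032). In the sort none of 21 was lower, where 10.8% of all genes were in CDH1-negative and 10.5% in CDH1-positive cells. In CDH1-negative cells 1 was higher and in CDH1-positive cells 3, against 7.82% and 8.33% of all genes, with Tet1 in both fractions. In ESCs 16 of 22 were higher than in MEFs and 3 lower, against 44.5% and 44.1% of all genes, with Dnmt3l, the cofactor of de novo methylation, at 200 and 187 against 0.0915 and 0.0883 CPM. Zfp57 was not called with inhibitor at day 2 (-0.070, adjusted p = 0.397) or day 4 (0.11, adjusted p = 0.0568).

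In all, 26 of the 41 members tested were called in at least 1 of the 8 inhibitor comparisons (63.4%, against 53.1% of all genes tested) and 15 in none. The latter were Sgce, Usp29, Magel2, Mkrn3, Ndn, Inpp5f, Mcts2, Nap1l5 and Zrsr1 of the paternal class and Cd81, Copg2, Klf14, Slc22a18, Tspan32 and Calcr of the maternal class. Klf14 and Calcr were tested in only 2 of the 8, those with the lentivirus, at no more than 0.039 CPM. Some were well measured, such as Cd81 at 739 and 733 CPM in day 4 controls and 747 and 727 CPM after the full window, and Copg2, a coatomer subunit gene whose end overlaps Mest, at 51.6 and 55.4 against 52.9 and 54 CPM at day 2. Mcts2 and Zrsr1, retrogenes inside H13 and Commd1, have near copies elsewhere, so their counts are uncertain. The host genes were called in the timecourse, H13 higher at both days (0.12 and 0.20) and Commd1 lower at day 4 (-0.18, adjusted p = 0.00774, at most 0.147 with a library left out). Commd1 lay between 29.1 and 35 CPM in those 4 libraries. H13 had 139 to 141 CPM in day 2 controls and 150 to 153 CPM with inhibitor. Impact, a regulator of the kinase GCN2, was called lower in CDH1-positive cells, at 131 to 133 against 141 to 144 CPM. Snrpn was called lower in CDH1-negative cells, at 16 to 16.4 against 18.85 to 19.06 CPM, and after the mid window (-0.25). Ube3a was called lower after the mid window (-0.25), and Zim1 at day 2 (-0.56) and after the full window (-0.25).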

How the data were processed

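RNA-seq was analysed for 43 imprinted genes in 36 libraries, each with a deposited table that lists 20325 genes of the mouse. RSEM 1.2.4, Bowtie and Trimmomatic are named in the submitters' processing notes, as are mm9 and hg18, without their roles. The deposited expected counts are RSEM's estimates, in which reads that map to several genes are shared out, and are not normalized. The deposited TPM values are scaled for effective gene length within each library. TPM was used for levels between genes and in alternatives.

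Expected counts were rounded and tested with edgeR 4.0.16 (quasi-likelihood, robust, TMM; filterByExpr with minimum count 10 and minimum total 15) in R 4.3.3. The timecourse (14 libraries, 14473 genes), sort (8, 13968) and lentivirus with ESC libraries (14, 15044) were fitted apart, with 1 coefficient per group and 19 contrasts, adjusted by Benjamini-Hochberg over all genes and called under 0.05. Depth limits low genes, and counting limits cover counting error only. The method was tested on simulated data. Alternatives were DESeq2 1.42.0, RLE size factors, no filter, limma 3.58.1 on log2(TPM + 1) and log2(TPM + 0.1), a replicate block and leaving out each library; 1 was added after the data were seen. Members were mostly given by library where a group mean reached 10 CPM and an inhibitor comparison called them. The same held for changes of 4-fold or more from MEF to day 2 or ESC. Some of these, such as Impact and Ube3a, are given by range or log2 change only. Others were named after their values were seen. Members and lists were chosen with earlier results of these data known. Promoter sequences come from RefSeq (GRCm38.p6), matched by symbol for 36 members. No coordinate of the files' build was used.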

Additional observations from a re-analysis of the deposited data

Results flagged for a closer look

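The inhibitor effect differed between day 4 (full window) and day 2 of the timecourse for 8 members by the test of the difference itself (edgeR quasi-likelihood, adjusted over all genes), in log2 units of day 4 minus day 2. Nnat, lowered at both times, differed by 0.3533 (adjusted p = 0.00841). Peg10, raised at both times, differed by 0.7438 (adjusted p = 4.57e-10). Slc38a4, lowered at both times, differed by -0.5262 (adjusted p = 3.97e-10), and Plagl1, lowered at both, by -0.2945 (adjusted p = 1.83e-05). Mest, raised at day 2 and lowered at day 4, differed by -0.7716 (adjusted p = 1.56e-15), and Cdkn1c, in the same order, by -1.176 (adjusted p = 1.35e-11). Dlk1, raised by less at day 4, differed by -0.3462 (adjusted p = 0.00879). Peg3, called at neither time, differed by -0.1766 (adjusted p = 0.0374). Libraries left out in turn ended the calls of Peg3, Dlk1 and Nnat (adjusted p up to 0.165, 0.124 and 0.0749).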

How the results depend on the processing

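With 2 libraries a group, small changes rest on single libraries. Of 271 single-gene calls, the alternatives kept between 222 of 254 (limma on log2(TPM + 1)) and 266 of 271 (RLE size factors), and the Cdh1-virus libraries in place of the empty-virus ones kept 31 of 36 in the step they bear on. Leaving out a library kept 941 of 1116. Grb10 in the step to day 2 with the empty virus reversed under limma, to -0.06503 on log2(TPM + 1) and -0.06513 on log2(TPM + 0.1), and Phlda2 in that step reversed to -2.929 with the Cdh1-virus libraries, an alternative chosen after seeing the data. The causes were not tested. The member called between viruses at day 2 went from 1 to 0 under DESeq2 and limma on log2(TPM + 1). With inhibitor and the Cdh1 virus the calls went from 7 to 3 under limma with either pseudocount, and with the empty virus from 8 to 4 on log2(TPM + 0.1).

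Leaving out each library gave these ranges. In the timecourse they were 30 to 32 (33 in all) from MEF to day 2, 32 to 34 (36) from day 2 to day 4, 11 to 13 (17) and 14 to 14 (20) with inhibitor at day 2 and day 4, 3 to 5 (7) after the early window, 10 to 10 (13) after the mid window, 11 to 11 (11) between windows and 6 to 7 (8) between days. In the sort they were 8 to 10 (11) between fractions, 11 to 13 (14) in CDH1-negative and 10 to 12 (12) in CDH1-positive cells. In the lentivirus set they were 30 to 32 (36) from MEF to day 2, 35 to 37 (37) for ESCs, 4 to 4 (8) and 3 to 10 (7) with inhibitor, and 0 to 1 (1) between viruses.

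The replicate block changed no count by more than 1.5 times, for example from 17 to 16 at day 2 and from 20 to 19 at day 4 with inhibitor, and ended 5 of 271 calls. Deviations of same-numbered libraries correlated from -0.449 to 0.163 in the timecourse, -0.121 to 0.11 in the sort and -0.252 to 0.289 in the lentivirus set, over 0.1 in 3 of 21, 1 of 6 and 5 of 21 pairs of groups. The numbers are therefore not taken as pairs.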
